A study of Mus musculus with 2 samples.

Results

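The liver X receptors LXRα and LXRβ, encoded by Nr1h3 and Nr1h2, are nuclear receptors that bind oxysterols, the oxidized derivatives of cholesterol (Chol), and switch on genes that move Chol out of cells. The 8 genes described here are these receptors and 6 of their known targets: the efflux transporters Abca1 and Abcg1, the sterol transporters Abcg5 and Abcg8, Mylip, which encodes the ubiquitin ligase IDOL, and Pltp, which encodes phospholipid transfer protein. They were taken by gene name from the 27962 gene names on the array, and 10 of its 41174 probes that are not controls carried these names. In the liver these genes are known for passing Chol to HDL and for secreting sterols into bile.

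Liver RNA came from male apoE-KO mice on the C57BL/6 background, which received either normal chow or the same chow with 1.25% Chol (the high-Chol diet) for 1 week from 10 weeks of age. Both groups therefore lack apolipoprotein E, and no mice with intact Apoe were analysed here. Each diet was measured in 3 independent experiments on single-colour Agilent arrays, named here by diet and by a number that pairs nothing, and the number of mice behind each experiment is not given in the sources used here. The question was how dietary Chol changes hepatic gene expression on this background, and p-values measure the spread between these experiments, which may in part be technical.

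Levels are given as log2 of the background-subtracted signal over the 75th percentile of the same array, so that 1 unit is a 2-fold difference, and levels of different probes are not compared. The 3 chow arrays and high-Chol array 1 lay on slide 1, read with software version 9.5, and high-Chol arrays 2 and 3 lay on slide 2, read with version 9.1. The 75th percentile was 271 to 325 intensity units for normal chow and 373, 799 and 762 for the high-Chol arrays, and 50.5% to 67.2% of spots were well above background, with the lowest share on chow array 1. The probe for Apoe gave levels of 3.31, 1.66 and 3.81 with normal chow and 3.20, 3.18 and 3.56 with the high-Chol diet, and whether it lies in the part removed by the knockout is not given in the sources used here. Of the defining hepatocyte markers, 7 of 7 on the array were well above background on all 6 arrays.

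After 1 week of the high-Chol diet, Abcg1 rose 2.42-fold, and it was the only gene of the 8 that passed the test (limma, adjusted p under 0.05 over 16727 genes). Of all genes tested, 2.69% were called higher and 0.227% lower by this test, and 1 of the 8 was called higher and 0 lower. With an unadjusted p below 0.05, 3 of the 8 were higher, Abcg1, Abca1 and Mylip, against 12.3% of all genes. The same 3 genes were those whose diets did not overlap, which 11.9% of the 16435 genes with values on all 6 arrays also showed in the higher direction. More than 1.5-fold higher were 2 of the 8, Abcg1 and Mylip, against 15.4% of all genes. After median scaling Mylip was under 1.5-fold, at 0.36 on the log2 scale, and Abca1 was at 0.33 (limma unadjusted p = 0.128 and 0.149). The median difference of the 8 genes was 0.31 on the log2 scale, beside -0.02 for all genes tested.

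**Figure D1:**
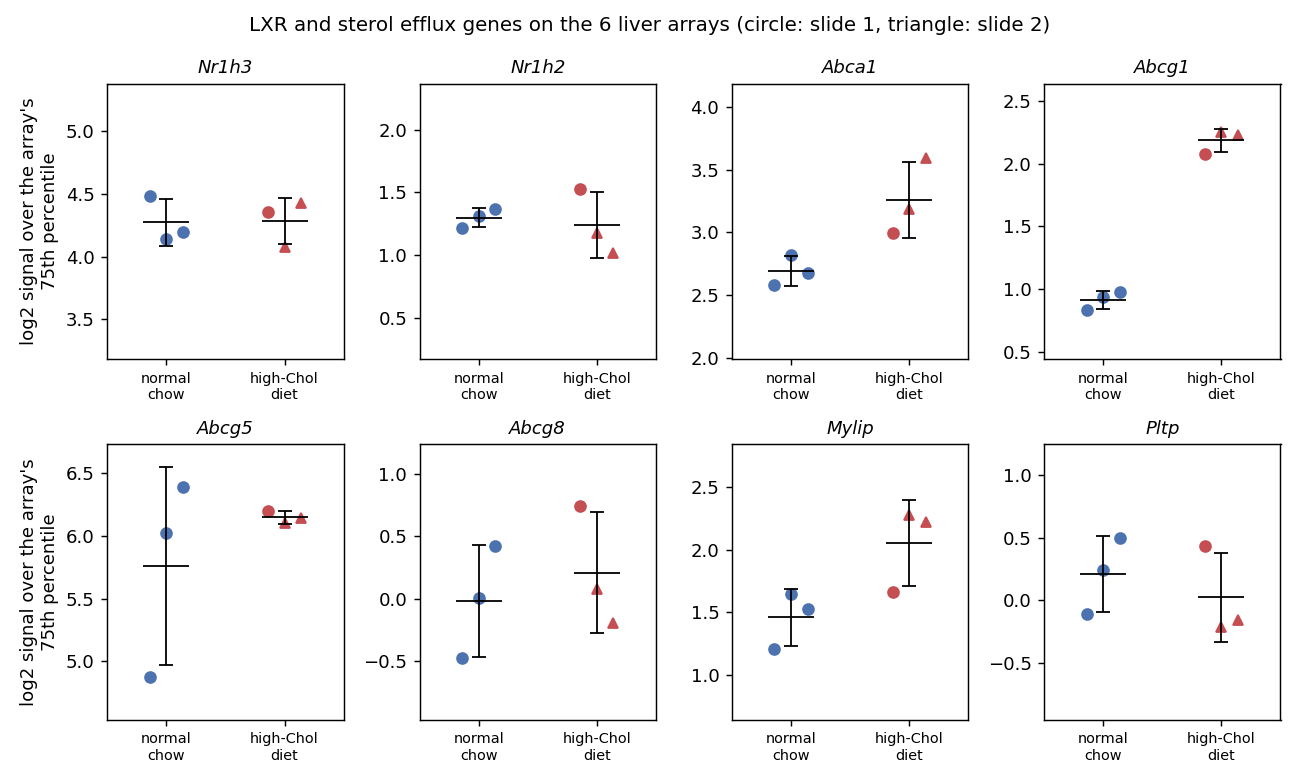
Log2 signal over the 75th percentile of the array for the 8 genes (1 probe each, the brightest), by diet. Points are single arrays (circles slide 1, triangles slide 2), the long bar is the mean and the error bars are the SD (n = 3); every axis spans the same log2 range. Abcg1 shows the diets apart, at 0.83 to 0.97 and 2.08 to 2.25, while Abca1 and Mylip lie closer together and the other genes overlap.

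Abcg1 encodes a transporter that passes cellular Chol to mature HDL particles and is abundant in macrophages. The level of Abcg1 was 0.83, 0.93 and 0.97 with normal chow and 2.08, 2.25 and 2.23 with the high-Chol diet. Every high-Chol array stood above every chow array, including high-Chol array 1, which shared slide 1 with the chow arrays. On a linear scale the signal was 1.78, 1.91 and 1.96 times the 75th percentile with normal chow and 4.23, 4.77 and 4.68 times with the high-Chol diet. The difference was 1.28 ± 0.14 (log2, SE, 95% confidence interval 0.94 to 1.61, limma adjusted p = 0.00894). The spread within each diet was small, with an SD of 0.07 and 0.09, and 3.19% of genes had a smaller pooled SD. By size Abcg1 ranked 683 among the 16727 genes, and by p it ranked 70.

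With slide as a block, which for this layout is the comparison within slide 1, the difference in Abcg1 was 1.17 (limma, 95% confidence interval 0.73 to 1.61, adjusted p = 0.0954) and it was no longer called, in a fit that called 11 genes in all. At an unadjusted p under 0.05 in that fit, 1 of the 8 genes, Abcg1, was higher, beside 5.64% of all genes. Leaving out single arrays gave 1.23 to 1.33, and the call was lost without chow array 2 (limma adjusted p = 0.0589) and without high-Chol array 2 (limma adjusted p = 0.0512). The study listed Abcg1 among its changed genes on these same arrays, so the call is not independent evidence.

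**Figure D2:**
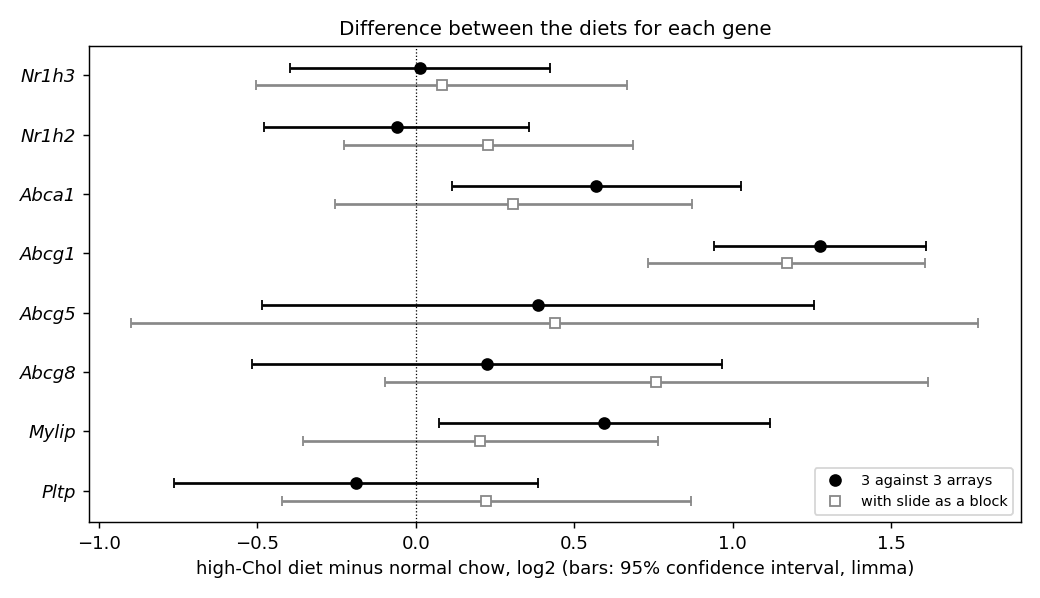
Difference between the diets for each of the 8 genes (x axis, high-Chol diet minus normal chow, log2). Black circles are the fit of 3 against 3 arrays, open squares the fit with slide as a block, and bars are 95% confidence intervals (limma). The intervals of Abcg1 lie above 0 in both fits, while those of Abca1 and Mylip do so only in the fit without slide.

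Markers of macrophages were higher on the high-Chol diet, as Abcg1 was, to differing degrees. The signals of the 12 macrophage markers on the array summed to 139, 134 and 112 times the 75th percentile with normal chow. With the high-Chol diet they summed to 287, 366 and 377 times, where Emr1 had no value on high-Chol array 2. These sums are weighted to Lyzs, the brightest of the probes. Its levels were 6.09, 5.90 and 5.71 with normal chow and 7.21, 7.90 and 7.93 with the high-Chol diet. Of the 11 that could be tested, 11 were higher, beside 47.8% of all genes, and 5 were called, beside 2.69%, namely Cd68, Marco, Lyzs, Ccr2 and Mpeg1. The median difference of the 11 was 0.86, from 0.28 for Csf1r, whose ranges overlapped, and 0.41 for Clec4f to 3.02 for Ccr2. Itgam was well above background on no array. Ccr2 was well above background on 1 of 3 chow and 3 of 3 high-Chol arrays and so passed the filter through the high-Chol arrays alone. Within slide 1 the median difference was 0.71, with none called.

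The other cell type lists differed in direction and size. The sum over hepatocyte markers was 1455 to 1626 with normal chow and 1139 to 1261 with the high-Chol diet, with 0 of 7 called and a median difference of -0.30. Endothelial markers summed to 28.7 to 32.5 and 28.6 to 31.6, with 0 of 6 called and a median difference of 0.13. This sum is weighted to Clec4g, its brightest probe. The largest endothelial difference was 0.94 for Cdh5, and 2 of the 6 were lower. Neutrophil markers summed to 1.57 to 1.75 and 9.23 to 15.4, with 2 of 3 called, S100a8 and S100a9. Their median difference was 2.90, which was 2.83 within slide 1. Stellate cell markers summed to 7.17 to 9.71 and 8.20 to 10.6, with 1 of 6 called, Col1a1, at 1.04 and at 1.16 within slide 1. The neutrophil and stellate calls are those of the fit without slide. Lymphocyte markers summed to 0.62 to 0.83 and 0.70 to 1.22, with 0 of 5 called and a median difference of 0.77, which was -0.02 within slide 1. None of the 4 cholangiocyte markers was called. Over all genes 2.69% were called higher and 0.227% lower. The part of these cells in the differences of Abcg1, Abca1 and Mylip was not tested, and in whole liver a change in the number of cells of a type and a change in RNA per cell cannot be told apart.

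The genes whose profile over the 6 arrays was most like that of Abcg1, each centred on its own mean and compared over 14042 genes, were Ear10, Vim and Axl. Ear10, a ribonuclease with near-identical paralogs that its probe may also read, lay at a root mean square distance of 0.06 log2 units, and its level was -1.97, -1.70 and -1.73 with normal chow and -0.57, -0.46 and -0.43 with the high-Chol diet. Vim, which encodes the intermediate filament protein vimentin, also lay at 0.06, and Axl, a receptor tyrosine kinase, at 0.07. Their differences were 1.32, 1.30 and 1.24. Among the 8 genes themselves the closest pair was Abca1 and Mylip, at 0.17, and the next was Nr1h2 and Pltp, also at 0.17.

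**Figure D3:**
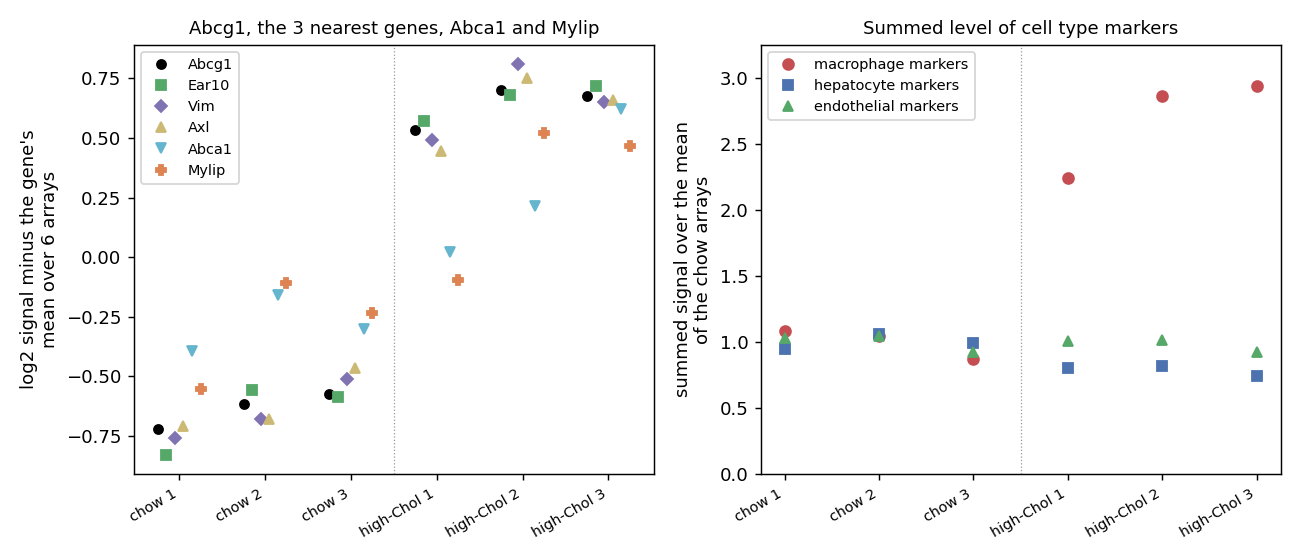
Left, log2 signal of Abcg1, of the 3 genes with the nearest profile (Ear10, Vim, Axl), of Abca1 and of Mylip, each minus its mean over the 6 arrays; right, summed signal of macrophage, hepatocyte and endothelial markers over the mean of the 3 chow arrays. Each point is 1 array, and the dotted line parts the diets. Macrophage markers summed to 112 to 139 with normal chow and 287 to 377 with the high-Chol diet, a sum weighted to Lyzs. The hepatocyte and endothelial sums stayed near the chow level or below it. Neutrophil markers, not drawn, summed to 1.57 to 1.75 with normal chow and 9.23 to 15.4 with the high-Chol diet.

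The receptors showed no difference that the test could detect. Nr1h3, the LXR isoform that is abundant in liver, had levels of 4.49, 4.14 and 4.19 with normal chow and 4.36, 4.08 and 4.43 with the high-Chol diet. The ranges overlapped, and the difference was 0.01 (95% confidence interval -0.40 to 0.42, limma adjusted p = 0.970). Nr1h2, the isoform found in most tissues, had levels of 1.21, 1.32 and 1.36 with normal chow and 1.53, 1.17 and 1.01 with the high-Chol diet. Here high-Chol array 1 was the highest of the 6 and the high-Chol arrays of slide 2 were the lowest. The difference was -0.06 (95% confidence interval -0.48 to 0.36, limma adjusted p = 0.858), and within slide 1 it was 0.23. Changes within these intervals are not excluded by these arrays, and the intervals are not a limit of detection.

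Abca1 encodes the transporter that loads Chol and phospholipid onto lipid-poor apolipoprotein A-I, the step that starts HDL. Its probe, at chr4:53044891-53044950 on the minus strand of mm7, the build of the array annotation (which names no exon or UTR), begins with the bases below, shown because Abca1 is the nearest of the other genes to a call.
Abca1: gttgcatccctttttgtagaacatttatat

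Abca1 had levels of 2.58, 2.82 and 2.67 with normal chow and 3.00, 3.19 and 3.60 with the high-Chol diet. The diets did not overlap, with a gap of 0.18 between the highest chow and the lowest high-Chol array. The difference was 0.57 (1.48-fold, 95% confidence interval 0.11 to 1.03) and it did not pass the test (limma adjusted p = 0.176). Within slide 1 it was 0.31 (95% confidence interval -0.26 to 0.87). Without high-Chol array 1, Abca1 reached 0.70 and was called (limma adjusted p = 0.0469), but then diet and slide coincided and cannot be told apart, and 3075 genes were called.

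Mylip encodes IDOL, a ubiquitin ligase induced by sterols. It was the only gene of the 8 apart from Abcg8 with more than 1 probe, and the 2 probes are shown because they gave different values. Both lie on the plus strand of mm7, at chr13:44861360-44861419 and chr13:44858383-44858442.
Mylip, brighter probe: tgtttccatattctaagttttcacccccac
Mylip, dimmer probe: acattaaccttggtaagaaatacgtcttcg

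On the brighter probe Mylip had levels of 1.20, 1.65 and 1.52 with normal chow and 1.66, 2.28 and 2.22 with the high-Chol diet. High-Chol array 1 lay only 0.01 above the highest chow array, and the slide 2 arrays lay well above it. The difference was 0.60 (1.51-fold, 95% confidence interval 0.07 to 1.12, limma adjusted p = 0.200), and within slide 1 it was 0.20 (95% confidence interval -0.36 to 0.76). Without high-Chol array 1 it was 0.79 and called (limma adjusted p = 0.0323), again with diet and slide inseparable. The dimmer probe was well above background on 1 of 3 chow and 2 of 3 high-Chol arrays, with levels from -4.74 to -3.62, and did not enter the test.

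Abcg5 and Abcg8 encode the partners of a heterodimer that secretes sterols into bile, and the genes stand head to head on chromosome 17. Abcg5 had levels of 4.87, 6.02 and 6.39 with normal chow and 6.20, 6.10 and 6.14 with the high-Chol diet. The high-Chol arrays agreed closely, with an SD of 0.05, whereas chow array 1 stood far below the other chow arrays and the chow SD was 0.79. The difference was 0.39 (95% confidence interval -0.48 to 1.26, limma adjusted p = 0.547), and it was -0.06 without chow array 1. Chow array 1 was also the lowest chow array for 7 of the 8 genes.

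Abcg8 was read by 2 probes, at chr17:82994253-82994312 and chr17:82989909-82989968 of mm7, both on the plus strand. On the brighter it had levels of -0.48, 0.01 and 0.42 with normal chow and 0.74, 0.08 and -0.19 with the high-Chol diet, and the ranges overlapped. The difference was 0.23 (95% confidence interval -0.52 to 0.97, limma adjusted p = 0.687). The other probe had levels of -0.73, -0.74 and 0.27 with normal chow and 0.41, 0.24 and -0.27 with the high-Chol diet, with a difference of 0.53 (95% confidence interval -0.22 to 1.28, limma adjusted p = 0.378 over 23913 probes). Within slide 1 the probes gave 0.76 and 0.81. Of the 9 probes that could be tested one by one, 1 was called higher, that of Abcg1, beside 2.36% of all probes.

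The ratio of Abcg5 to Abcg8 within an array, which needs no scaling, was compared between the diets. On the brighter Abcg8 probe it was 5.35, 6.01 and 5.97 (log2) with normal chow and 5.46, 6.02 and 6.33 with the high-Chol diet. The ranges overlapped, and the difference of 0.16 gave p = 0.5 in a two-sided exact permutation test, whose smallest possible p with 3 against 3 arrays is 0.1. On the other probe the difference was -0.14 (exact permutation p = 0.7).

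The ratio of Abcg1 to each of the other 7 genes, taken within an array in the same way, was higher without overlap on the high-Chol diet for 6 of the 7. The same held for 84.8% of 16434 genes with values on 6 arrays. All of these ratios hold the same Abcg1 values, and the count says nothing particular about the 7 genes. Against Abca1, the other transporter that passes Chol to HDL, the log2 ratio was -1.75, -1.88 and -1.70 with normal chow and -0.92, -0.94 and -1.37 with the high-Chol diet. An exact permutation test cannot go below 0.1 here, the p of each of these 6 (0.117 after Benjamini-Hochberg adjustment over 7), and so none could pass the threshold. The exception was Abcg5 (exact permutation p = 0.2), where chow array 1 lay among the high-Chol arrays.

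Pltp encodes a plasma protein that moves phospholipids between lipoproteins and remodels HDL. Its probe covers 3957 bases of mm7 (chr2:164581164-164585120, minus strand) and so spans at least 1 intron. Pltp had levels of -0.11, 0.24 and 0.50 with normal chow and 0.43, -0.21 and -0.16 with the high-Chol diet. High-Chol array 1 lay among the chow arrays and the slide 2 arrays were the lowest of the 6. The difference was -0.19 (95% confidence interval -0.76 to 0.38, limma adjusted p = 0.661), and within slide 1 it was 0.22. With single arrays left out it was -0.40 (without high-Chol array 1) to -0.04 (without chow array 3).

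With slide as a block, all 8 differences were above 0, beside 41.8% of all genes, with a median of 0.27 beside -0.06 for all genes, and 0 of the 8 were called. For these values high-Chol liver is represented by 1 array, and chow array 1 was the lowest of the chow arrays for 7 of the 8 genes. Their 95% confidence intervals included 0 for 7 of the 8, Abcg1 being the exception.

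The promoters were read for motifs because LXR binds, with its partner RXR, a direct repeat spaced by 4 bases, known as DR4. RefSeq windows from 250 bases before to 50 after a start (GRCm38.p6) were at hand for 7 of the 8 genes, all but Abcg1, in 9 windows. The repeat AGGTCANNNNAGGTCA, searched on both strands, was found with at most 2 mismatches in 3.02% of 32851 windows and in 0 of the 9. With at most 3 mismatches it was found in 21.9% of all windows and in 1 of the 9, that of Abca1, at positions -67 to -52. The bases before the start of Abca1, at chr4:53159896-53160005 on the minus strand, are shown with this match in capitals.
Abca1: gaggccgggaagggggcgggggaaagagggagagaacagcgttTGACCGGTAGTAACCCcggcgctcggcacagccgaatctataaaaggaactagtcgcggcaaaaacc

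The starts of Abcg5 and Abcg8 are 109 bases apart, at chr17:84683012-84683120, and the sequence between them is shown on the plus strand, since both genes are read from it. In capitals is TTATCT, the other strand of AGATAA, a motif of the kind that GATA factors read. AGATAA, on both strands, stood in 11.2% of all windows and in the windows of these genes, which overlap.
Abcg5 and Abcg8: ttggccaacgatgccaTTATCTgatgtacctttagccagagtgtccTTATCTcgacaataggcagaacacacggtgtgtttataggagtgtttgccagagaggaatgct

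A match to a motif describes these letters and not a site of binding.

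Of 60 related genes in 5 lists, 4 were called higher and 0 lower, beside the 2.69% and 0.227% of all genes, and 3 of the 4 were well above background on every array of both diets. Among 14 other LXR targets, 3 were called higher and 0 lower, with a median difference of 0.14, which turned to -0.02 after median scaling and to -0.10 with the authors' values. Lpl, the lipoprotein lipase, which the study also listed on these arrays, had levels of 1.44, 0.85 and 1.40 with normal chow and 3.00, 3.28 and 3.03 with the high-Chol diet, with a difference of 1.87 (limma adjusted p = 0.00894). Cd5l, a secreted protein of macrophages, rose by 1.42 (limma adjusted p = 0.0123) and Arl4c, a small GTPase linked to Chol transport, by 1.21 (limma adjusted p = 0.0375). These 3 genes and Abcg1 were higher on the same diet as the macrophage markers, and the part of macrophages was not tested. The lipogenic targets in the same list were not called: Srebf1 differed by 0.22 and Scd1 by 0.43. Fasn had a value on 1 high-Chol array, and no difference is given for it. By real-time RT-PCR the study reported a significant reduction of Fasn mRNA, but none of Scd1 or of the SREBP-1c form of Srebf1.

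Among 9 oxysterol enzymes 1 was called higher and 0 lower, and the median difference was -0.35, between -0.70 with the authors' values and -0.19 after quantile normalization. It was Ch25h, which makes an oxysterol that binds LXR. It was well above background on 0 of 3 chow and 3 of 3 high-Chol arrays, so it passed the filter through the high-Chol arrays alone. Its call (limma adjusted p = 0.0413) rests on chow values not well above background and does not belong to the bound. Only a bound on the mean difference can be given, at least 4.62-fold higher in high-Chol liver. For this bound the chow side was set at the lowest signal well above background on each array. The high-Chol levels of Ch25h were spread, at -2.40, -1.18 and -3.41. The median of the list could not change with Ch25h at its bound, which was still the highest value of the list. Cyp27a1, which makes another ligand, differed by -0.57 (limma adjusted p = 0.288) but by 0.07 within slide 1, the 2 high-Chol arrays of slide 2 being the low ones.

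The other lists held no call in either direction. Among 14 LXR partners and cofactors the median difference was -0.15 (-0.38 after median scaling, -0.02 with a normexp background), and the largest differences were those of Nr0b2, which encodes the repressor SHP, at 1.13 (limma adjusted p = 0.147), and of the coactivator Ppargc1b, at -1.001 (limma adjusted p = 0.1002). Rxra, which encodes the main RXR of liver, differed by -0.53 (limma adjusted p = 0.135, unadjusted p = 0.0108). The study listed Rxra as lowered on these same arrays by its own test. Among 12 sterol and HDL transport genes the median was -0.26 (0.03 with a normexp background, -0.50 with the authors' values). The largest differences were those of Npc1, a lysosomal Chol exporter, at -0.84 and Lcat, the enzyme that esterifies Chol on HDL, at -0.62. Within slide 1 these were -0.49 and -0.07. Among 11 other ABCA and ABCG transporters it was 0.15 but between -0.05 and -0.10 in 5 of the alternatives, with Abcg3 at 1.46 and Abca8a at -0.67, which were 0.72 and -0.41 within slide 1. With slide as a block none of the 60 genes was called.

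**Figure D4:**
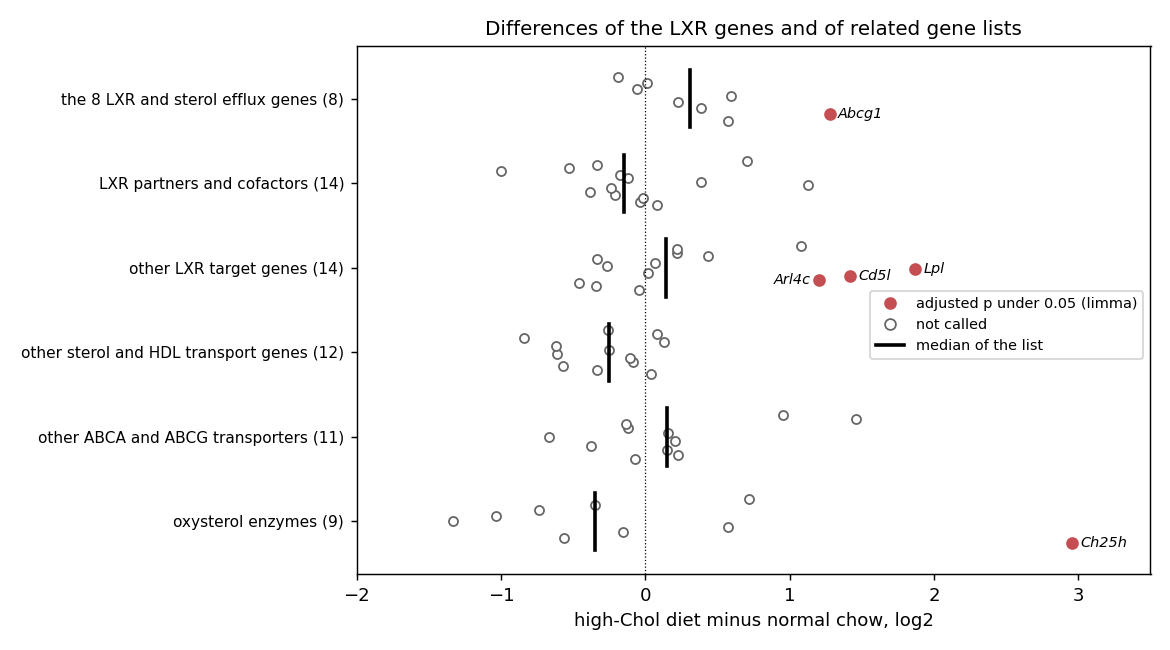
Difference between the diets (x axis, high-Chol diet minus normal chow, log2) for the 8 LXR and sterol efflux genes and for 5 related lists, with the number of genes tested in parentheses. Each circle is a gene, filled where it was called by limma, and the thick line is the median of the list; Abcg1, 3 other LXR targets and Ch25h, drawn at its measured difference although only a bound can be given, were called higher, and no gene was called lower.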

How the data were processed

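Liver RNA of apoE-KO mice was labelled with Cy3 and hybridized to 6 Agilent whole mouse genome arrays, 3 per diet. The authors deposited the scanner output, whose spot intensity had been background-subtracted by Agilent Feature Extraction (version 9.1 in the submitters' processing notes; 9.5 on slide 1 and 9.1 on slide 2 per the file headers) and not normalized between arrays. The authors also deposited normalized log2 values, a single one per probe and diet, for 23458 probes, made in Gene Spring GX, whose settings are not given in the sources used here. Its differences between the diets ran at a slope of 1.00 and an offset of -0.24 against those used here (Pearson's r of 1.00; probes are not independent replicates).

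From the intensities, log2 of the processed signal minus the 75th percentile of each array over 43379 spots was computed. The 1639 control spots and 75 to 196 outlier spots per array were left out. A probe was tested when well above background on every measured array of a diet or of both, and the brightest such probe stood for its gene. For the diet comparison, limma 3.58.1 (R 4.3.3; lmFit and eBayes without covariates) was used with Benjamini-Hochberg adjustment over all genes and a threshold of 0.05. Tables and plots used Python 3.11.15, pandas 2.3.3, numpy 2.4.6, matplotlib 3.10.9 and the R package data.table (1.17.8). Accessions of 10 of 10 probes matched the RefSeq table, used for names and promoters alone.

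The genes, lists and tests were chosen with earlier results of these data known. Named are the 8 genes, the called genes of each list (where none, the 2 with the largest difference among those above background on all 6 arrays), the 3 genes nearest in profile to a called gene, markers beside a result, and Apoe. Lipogenic targets, Rxra and Cyp27a1 were named after their values were seen. Rnf145 was not found on the array by name, and Npc1l1, Lipg and Sult2b1 were too dim to test. Some genes of the lists and a probe sequence are not reported here, and they were left out of the list counts and medians.

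In simulated data on 16435 genes of this comparison, limma called 28 of 97 genes changed 2-fold and 78 of 103 changed 4-fold, with 3 false calls and 0 of wrong sign. The simulated noise was independent between arrays and held no slide effect. These counts therefore say nothing about false calls under the slide layout of the real arrays. The number of arrays limits the precision. Alternatives were a normexp background (offset 50), median scaling, quantile normalization, dropping the dim-probe filter or asking it of all 6 arrays, the mean of a gene's probes, every probe by itself, kept outlier spots, a slide block, leaving out each array, the methods' t-test and the authors' values. A normexp background from the median background of each array was chosen after seeing the data.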

Additional observations from a re-analysis of the deposited data

How the results depend on the processing

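The difference of Abcg1 stayed above 0 under every alternative run, from 1.03 with the authors' values (no test) to 1.34 after quantile normalization, and from 1.23 to 1.33 with each array left out. Its call was lost with slide as a block (1.17), with a normexp background (1.24), and, at 1.28, with no filter on dim probes and in the methods' t-test after adjustment. In each of these 4 settings the number of the 8 genes called higher, 1 in the main comparison, was 0, and so were the related genes called higher (4 in the main comparison). Of all genes 2.92% were called in the main comparison, and in these settings 0.0658%, 0%, 0.093% and 0.0299%, so that nearly every call was lost. The methods' t-test unadjusted gave 2 of the 8 genes, and 7 related genes higher and 7 lower, beside 8.39% of all genes higher and 8.31% lower. With each array left out, 0 to 3 of the 8 genes, 0 to 2 of their probes, 1 to 7 related genes higher and 0 to 6 lower were called, the highest counts without high-Chol array 1, beside 0.251% (without chow array 2) to 18.4% (without high-Chol array 1) of all genes. With slide as a block 0 probes were called.

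The normexp fit called 0 genes in all. On 3 arrays single spots had local background above their signal by 3561, 38369 and 65048 units, and with each array's median background in its place 365 genes were called, Abcg1 with 1.28.

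The sign changed for 5 of the 8 genes. Nr1h2 was 0.101 with normexp, 0.0181 after quantile normalization and 0.228 with the slide block, and -0.204 to 0.0529 with arrays left out. Nr1h3 was -0.223 after median scaling, -0.229 with the authors' values and -0.0568 to 0.119 with arrays left out. Abcg8 was -0.0101 after median scaling, -0.0163 with the authors' values and -0.0405 to 0.443 with arrays left out, Abcg5 -0.0582 to 0.70 with arrays left out, and Pltp 0.22 with slide as a block and -0.43 after median scaling and with the authors' values. Abca1 and Mylip kept their sign but fell to 0.33 and 0.36 after median scaling and to 0.33 and 0.35 with the authors' values. Median scaling moved the median of all genes to -0.26. The list medians moved too. That of other LXR targets (0.14) was 0.47 with normexp, 0.28 after quantile normalization, -0.02 after median scaling and -0.10 with the authors' values. It was 0.06 with the slide block and 0.02 to 0.18 with arrays left out. That of other ABCA and ABCG transporters (0.15) was -0.09 after median scaling, -0.08 for the mean of a gene's probes, -0.07 for every probe by itself, -0.05 with normexp from the median background and -0.10 with the authors' values, and that of sterol and HDL transport (-0.26) was 0.03 with normexp. That of LXR partners (-0.15) was -0.38 after median scaling, -0.39 with the authors' values, -0.02 with normexp and -0.03 with the slide block. That of oxysterol enzymes (-0.35) was -0.58, -0.70, -0.23 and -0.20 in the same order and -0.19 after quantile normalization. With arrays left out the median of the partners was -0.17 to -0.04 and that of the oxysterol enzymes -0.63 to -0.21. The cause of these changes was not tested. No paired analysis was possible because the array numbers pair nothing between the diets. Depth on arrays is signal over background, and of the probes of the 8 genes it limits the dimmer Mylip probe, which did not pass the filter.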
